A study of Mus musculus with 24 samples.

Results

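The comparison described here sets MLO-Y4 cells held at the ug position of a high magneto-gravitational environment against the same cells held at its 1g position, all of them treated with an irrelevant antibody. It rests on 6 of the 24 arrays of the series, chosen by their titles, 3 at ug and 3 at 1g. MLO-Y4 is an established mouse cell line with osteocyte features. In both groups an irrelevant rabbit IgG was added at a 1:50 dilution for 30 min at 37 °C in 5% CO2, after which the dishes went to their positions. The series also holds cells at the 2g position and in a plain incubator (C), and the same 4 environments after Cx43(E2), an antibody that blocks hemichannels built of the connexin Cx43, again with 3 arrays each. The labels give neither the time on the platform nor the field at a position. Nothing in them says that the replicates were separate cultures, so that p-values measure only the spread between arrays. In the main fits that spread, and with it each standard error, was estimated over all 24 arrays and not from the 6 compared alone.

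A magneto-gravitational platform works with the strong field gradients of a superconducting magnet, which push water and most biological material away from the field. Above the centre of the bore this force can offset the weight of the cells, at the centre it vanishes, and below the centre it adds to the weight. The 1g position therefore carries the magnetic field without the change of apparent weight, which is what makes it the nearest control for ug. The field itself also differs along the bore, so that apparent weight and field strength cannot be told apart in this comparison.

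Osteocytes are the mechanosensing cells of bone. Stretch, fluid flow and unloading reach the nucleus within minutes through calcium, ATP, prostaglandin E2 and kinase cascades, and the first transcripts to answer are the immediate early genes. They encode transcription factors of the AP-1 (Fos, Jun, Atf3), Egr, Nr4a and Klf families, and they are followed by genes that brake the same cascades, such as the MAP kinase phosphatases (Dusp), the Sprouty proteins (Spry) and Gem, a small GTPase that restrains calcium channels. Many immediate early promoters carry the cAMP response element bound by CREB, a factor switched on by calcium and cAMP signalling.

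Fos, Fosb, Atf3 and Nr4a1 had some of the largest mean differences between ug and 1g on the immediate early list. None of the 4 had an unadjusted p below 0.05 in limma. Their proximal promoters are shown as background, and whether these bear on the values below was not tested. Each is the 120 bases upstream of the annotated start in RefSeq GRCm38.p6, written 5′ to 3′ on the strand of the gene, with every match to the core of the cAMP response element (TGACG, or CGTCA on the other strand) in capitals. They lie at chr12:85473770-85473889 (plus strand), chr7:19310046-19310165 (minus strand), chr1:191183334-191183453 (minus strand) and chr15:101266726-101266845 (plus strand).
Fos: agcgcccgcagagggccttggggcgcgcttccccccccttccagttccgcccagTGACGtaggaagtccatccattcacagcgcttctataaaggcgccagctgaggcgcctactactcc
Fosb: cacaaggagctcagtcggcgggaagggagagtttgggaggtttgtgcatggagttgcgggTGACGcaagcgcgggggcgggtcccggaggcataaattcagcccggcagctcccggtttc
Atf3: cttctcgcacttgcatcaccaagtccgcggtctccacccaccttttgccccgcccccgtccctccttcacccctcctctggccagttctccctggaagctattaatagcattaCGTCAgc
Nr4a1: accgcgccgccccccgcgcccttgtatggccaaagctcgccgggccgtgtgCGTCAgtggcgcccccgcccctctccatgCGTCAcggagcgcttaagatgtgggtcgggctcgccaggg
The core began 66 bases upstream of the start in Fos, 60 in Fosb, 7 in Atf3, and 69 and 40 in Nr4a1. Within 250 bases upstream, on either strand, the core was found in 15 of the 23 immediate early genes that matched a promoter entry (65.2%) and in 5347 of all 27025 genes with an entry (19.8%). The full element TGACGTCA, which contains the core, was found in 2 of the 23 and in 1.77% of all genes, and the CArG box, the site of serum response factor, in 3 of the 23 and in 1.62%. Fosl1, Egr1, Egr3, Ier2, Klf10, Myc, Arc and Gem were not matched. A match describes the letters only.

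Gene levels are log2 intensities as deposited, and a difference of 1 on this scale is a 2-fold difference in intensity. Array medians lay between 6.48 and 6.65 in the series, and 14489 genes passed the filter on dim probe sets and were tested. The 4 arrays that share an antibody and a title number (C, 1g, 2g and ug) are called a set, which gives sets IgG 1 to IgG 3 and E2 1 to E2 3. Gja1 (10363173), the gene of Cx43, was measured at 11.56, 11.46 and 11.89 at 1g and 11.57, 11.50 and 11.84 at ug in sets IgG 1, 2 and 3, a difference of 0.00024 ± 0.18 (standard error, SE). Of the defining osteocyte genes, Pdpn (podoplanin, 10518147) was measured at 12.79, 12.71 and 12.58 at 1g and 12.80, 12.69 and 12.74 at ug and Sost (sclerostin, 10391508) at 6.82, 6.96 and 7.22 at 1g and 6.95, 7.17 and 7.17 at ug. Dmp1, Mepe and Phex, 3 further osteocyte genes, did not pass the filter.

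In set IgG 2, the arrays labelled 2g and ug stood against the other sets, and are called the opposed arrays. Gem (10503334) was read at 8.69 (2g) and 5.97 (ug). In the 5 other sets it lay between 6.05 and 7.02 at 2g and between 8.29 and 10.50 at ug. The same held for Fos, Fosb, Atf3, Egr1 and Nr4a1: in set IgG 2 the array labelled 2g was the brightest of the 4 for all 6 genes, and in sets IgG 3 and E2 1 to E2 3 the array labelled ug was. In set IgG 1 the array labelled ug was the brightest for 5 of the 6, the exception being Nr4a1. Across all genes, ug minus 2g in set IgG 2 correlated with the 5 other sets at r = -0.305 to -0.00414 (median -0.276), and those 5 with each other at -0.162 to 0.384 (median 0.181). The labels are kept here, and the cause was not tested. The main counts, Gem and the immediate early median are also given without the opposed arrays, while the other early genes are given for ug against 1g with them. Whether the 2 arrays were exchanged is not known from the sources used here, so every value at ug in set IgG 2 carries that doubt.

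**Figure D1:**
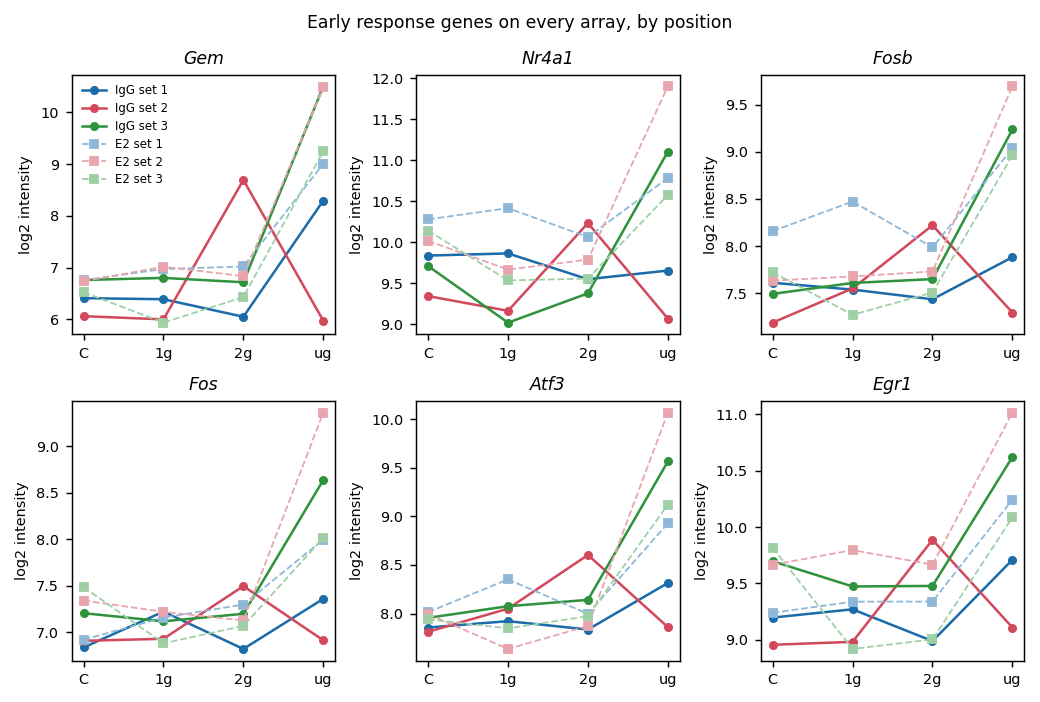
Log2 intensity (y) of Gem, Nr4a1, Fosb, Fos, Atf3 and Egr1 on each of the 24 arrays, by position (x: C, 1g, 2g, ug), with 1 line per set (solid: IgG; dashed: E2). In set IgG 2 the 2g array is the brightest for all 6 genes, while in set IgG 3 and the 3 E2 sets the ug array is.

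**Figure D2:**
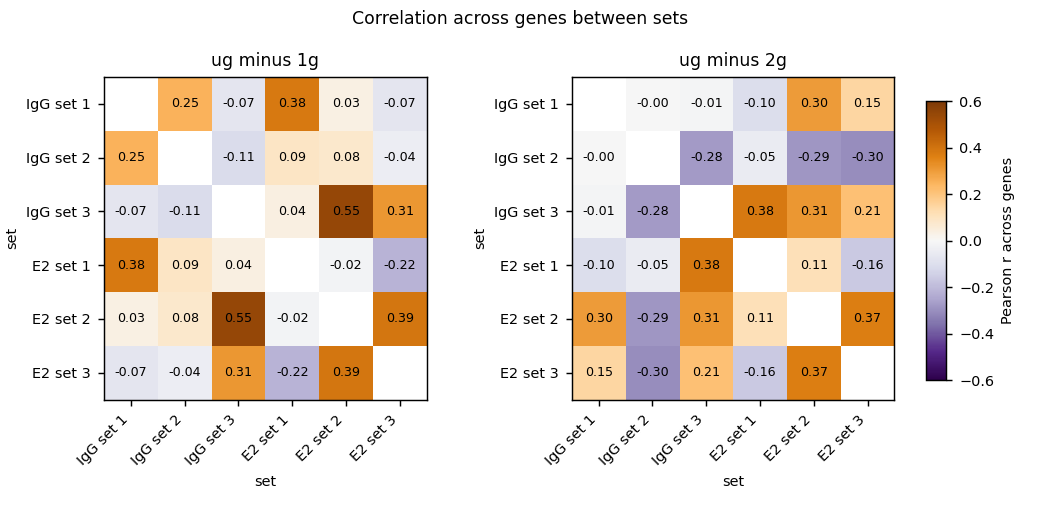
Pearson correlation across 14489 genes between the 6 sets, for ug minus 1g (left) and ug minus 2g (right); colour and number give r. Set IgG 2 correlates below 0 with every other set in ug minus 2g, and in ug minus 1g sets IgG 3 and E2 2 correlate most closely (0.55).

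No gene passed the test between ug and 1g. With limma, 0 of 14489 genes had an adjusted p below 0.05 (lowest 0.999923), and 162 genes (1.12%) had an unadjusted p below 0.05, 99 of them higher (0.683%) and 63 lower (0.435%) at ug. With the replicate number as a block, 0 genes passed (lowest adjusted p 0.999629) and 494 (3.41%) were below the unadjusted 0.05, 201 higher (1.39%) and 293 lower (2.02%). The median standard error of a difference was 0.103 (0.0821 with the block). Among the 6855 probe sets with no symbol or several, 0 passed in either fit, with 142 below the unadjusted 0.05 (244 with the block). Without the opposed arrays, 292 genes were below the unadjusted 0.05, and 4 passed the adjusted test with the block, as described in the paragraph on that fit. Leaving out 1 array moved the 162 to 429 without the 1g array of set IgG 3, to 311 without the ug array of set IgG 2 and to 106 without the 1g array of set IgG 1, with 0 genes past the adjusted threshold each time.

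The 3 sets were only weakly alike. Over all genes ug minus 1g had an SD of 0.155, 0.123 and 0.172 in sets IgG 1, 2 and 3, and its correlation across genes was 0.249 between sets 1 and 2, -0.0724 between sets 1 and 3, and -0.112 between sets 2 and 3. Genes with the same sign in all 3 sets numbered 1600 higher (11.0%) and 2202 lower (15.2%). Differences past 1 were found in set IgG 1 for 5 genes (0.0345%), all higher: Gem, the small nucleolar RNA Snora75, Samd9l, and the zinc finger genes Zfp942 and Zfp729b. Snora75 (10356329) did not keep its sign, with set differences of 1.41, -0.67 and 0.92. No gene passed 1 in set IgG 2. In set IgG 3, 23 genes (0.159%) were higher by more than 1 and 1 (0.00690%) was lower, Pdk4 (10543017), a kinase gene whose product holds back the oxidation of pyruvate, at -1.14.

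The immediate early list held 30 genes, all of them tested. Of these, 26 had a mean difference above 0 against 47.0% of all genes, with a median of 0.17 against -0.0051. Set 3 stood apart: the median was 0.017 in set IgG 1, -0.017 in set IgG 2 and 0.50 in set IgG 3, with 17, 13 and 27 of the 30 above 0. No member had an unadjusted p below 0.05 (1.12% of all genes did), and 2 did with the block (3.41% of all genes), Egr1 and Klf4. 6 members were higher in all 3 sets (11.0% of all genes) and 1, Klf6, had no overlap between its 3 arrays at ug and its 3 at 1g (2.68% of all genes). Without set IgG 3 the median was 0.0015, with 15 genes higher and 15 lower, and without set IgG 2 it was 0.27.

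Among the AP-1 genes, Fos (10397346), a founding AP-1 subunit, was measured at 7.22, 6.93 and 7.12 at 1g and 7.36, 6.91 and 8.64 at ug. The ug array of set IgG 3 stood alone, and the other arrays of both groups overlapped, which gave 0.55 ± 0.34 (unadjusted p = 0.125, 0.07002 with the replicate block). Its relative Fosb (10560481) was at 7.54, 7.55 and 7.61 at 1g and 7.88, 7.29 and 9.24 at ug, a difference of 0.57 ± 0.36 (unadjusted p = 0.124, 0.0736 with the replicate block). As for Fos, the ug array lay above its 1g array in sets 1 and 3 and below it in set 2. Atf3 (10361091), a stress-induced member of the ATF family that pairs with Jun proteins, was at 7.92, 8.05 and 8.08 at 1g and 8.31, 7.86 and 9.56 at ug and differed by 0.56 ± 0.31 (unadjusted p = 0.0878, 0.0619 with the replicate block). The Jun partners had smaller mean differences. Junb (10580282) differed by 0.17 ± 0.20, Jun (10514466) by -0.040 ± 0.12 and Jund (10572456) by 0.0067 ± 0.072. The Fos-related Fosl1 (10460585) and Fosl2 (10520862), which take over AP-1 later in a response, differed by 0.0044 ± 0.058 and 0.11 ± 0.11, and Maff (10425283), a small Maf protein that dimerises with related factors, by 0.064 ± 0.17.

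Egr1 (10454782), the zinc finger factor most often used as a marker of kinase signalling, was one of the 6 members whose ug array was above its own 1g array in every set, with Klf6, Klf4, Mcl1, Egr3 and Jund. It was measured at 9.27, 8.98 and 9.47 at 1g and 9.71, 9.11 and 10.62 at ug, so the groups overlapped, and the difference was 0.57 ± 0.33 (unadjusted p = 0.1004, 0.0250 with the replicate block). Egr2 (10363735) was at 7.10, 7.11 and 7.38 at 1g and 7.22, 7.03 and 8.36 at ug, again with set 3 apart, and differed by 0.34 ± 0.33. Egr3 (10416251) and Egr4 (10545859) differed by 0.031 ± 0.17 and 0.052 ± 0.11.

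The Nr4a genes encode orphan nuclear receptors that need no ligand and are controlled through their own transcription. Nr4a1 (10427035) was at 9.86, 9.16 and 9.02 at 1g and 9.65, 9.07 and 11.10 at ug. It was lower at ug than at 1g in sets 1 and 2 and 2.08 higher in set 3, for a mean difference of 0.59 ± 0.40 (unadjusted p = 0.154, 0.121 with the replicate block). Nr4a3 (10504838) was at 7.23, 6.66 and 6.62 at 1g and 6.94, 6.81 and 7.81 at ug and differed by 0.35 ± 0.31. Nr4a2 (10482772), the family member best known from neurons, differed by 0.21 ± 0.17, with set differences of -0.15, 0.11 and 0.66.

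Of the Klf factors, Klf6 (10403352) was at 9.06, 9.08 and 8.96 at 1g and 9.24, 9.12 and 9.37 at ug, and Klf4 (10513008) at 9.04, 8.89 and 9.27 at 1g and 9.15, 9.02 and 9.72 at ug. Both were higher at ug in each set. Their differences were 0.21 ± 0.13 (unadjusted p = 0.113, 0.0502 with the replicate block) for Klf6 and 0.23 ± 0.21 (unadjusted p = 0.287, 0.0290 with the replicate block) for Klf4. Klf2 (10572800), known as a flow-responsive factor, differed by 0.069 ± 0.12, and Klf10 (10428302), a TGF-beta response gene, by -0.11 ± 0.13. Arc (10429491) and Csrnp1 (10597758) had set differences of 0.11, -0.035 and 0.93 and 0.096, -0.11 and 1.03, Ier3 (10444890) of 0.043, -0.091 and 0.82 and Ier5 (10358978) of -0.058, -0.066 and 0.62. These 4 share the shape of Fos, with values near 0 in sets 1 and 2. Zfp36 (10561453), which encodes the mRNA-decay factor tristetraprolin, had -0.045, -0.017 and 0.75, Ier2 (10580183) -0.096, -0.29 and 0.59, and Btg2 (10357875), an antiproliferative gene, -0.23, -0.13 and 0.34. Mcl1 (10494306), a short-lived survival factor, differed by 0.11 ± 0.12, and Myc (10424400) by 0.052 ± 0.13. Srf (10451363), which encodes serum response factor itself, was the member with the lowest mean difference, -0.12 ± 0.084, from 0.031, 0.018 and -0.40.

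**Figure D3:**
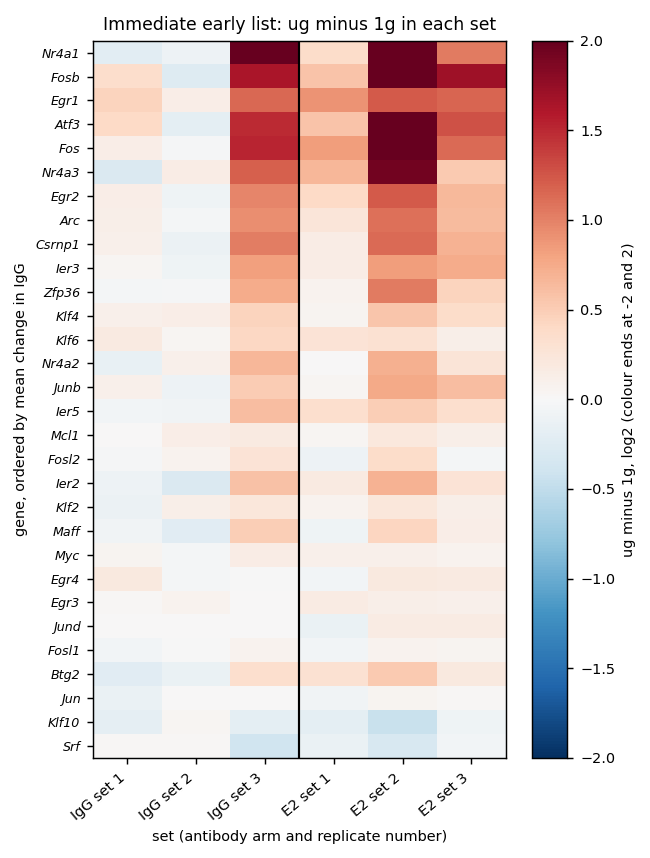
Heat map of ug minus 1g (log2, colour) for the 30 immediate early genes (rows, ordered by mean difference in IgG) in the 6 sets (columns). Columns IgG 1 and IgG 2 are pale, with medians of 0.017 and -0.017, and columns IgG 3, E2 2 and E2 3 are red, with medians of 0.50, 0.54 and 0.26.

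Gem, which is listed among the early feedback brakes, showed the widest spread of all genes tested. It was measured at 6.39, 5.999 and 6.80 at 1g and 8.29, 5.97 and 10.50 at ug. The ug arrays of sets 1 and 3 lay far above every 1g array, and the array labelled ug of set IgG 2 lay below its own 1g array. The mean difference was 1.86 ± 0.75 (unadjusted p = 0.0220, 0.0108 with the replicate block), with an adjusted p of 0.9999 in limma. The 25 feedback brakes as a list had 19 members above 0 (47.0% of all genes) and a median of 0.067. Their set medians were -0.074, -0.027 and 0.22, and without set IgG 3 the median was -0.033. Of the 25, 1 member, Gem, was below the unadjusted 0.05 (1.12% of all genes). Dusp1 (10449284) and Dusp2 (10475782), phosphatases that switch off MAP kinases, had set differences of 0.011, 0.0053 and 1.01 and 0.0047, 0.050 and 0.86. Dusp2 differed by 0.30 ± 0.15 (unadjusted p = 0.0515, 0.0355 with the replicate block). Pim1 (10443527), a kinase gene induced by cytokines, had 0.23, 0.20 and 0.42, so that all 3 genes were above 0 in every set and Pim1 had the more even values.

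Among all genes tested, the largest mean differences with 1 sign in all 3 sets fell on genes of many kinds. Of the 10 largest on the higher side, Fbxo39 (10378078), an F-box gene, came first: it was measured at 5.80, 5.71 and 6.20 at 1g and 6.64, 6.04 and 7.22 at ug, and differed by 0.73 ± 0.23 (unadjusted p = 0.00453, 0.000220 with the replicate block). Its groups overlapped through the ug array of set 2 alone. A3galt2 (10508368), a glycosyltransferase gene, was at 5.70, 5.63 and 5.80 at 1g and 6.30, 5.82 and 6.95 at ug with no overlap, and differed by 0.65 ± 0.23 (unadjusted p = 0.0107, 0.00566 with the replicate block). Both Fbxo39 and A3galt2 were dim at 1g, with every value there below the lowest array median of 6.48. The filter asks for only 3 arrays, so a gene dim at 1g can pass it through arrays where it is high. Slc5a3 (10436945), the sodium-coupled inositol transporter that cells use against osmotic stress, was at 7.98, 7.95 and 8.32 at 1g and 8.46, 8.18 and 8.96 at ug. Its 3 differences were 0.48, 0.23 and 0.64, for a mean of 0.45 ± 0.22 (unadjusted p = 0.04997, 0.00144 with the replicate block). Fnip1 (10376144), a partner of folliculin in nutrient sensing, had set differences of 0.81, 0.12 and 0.56. Tent5c (10500610), a poly(A) polymerase gene, had 0.045, 0.075 and 1.39, nearly all of it in set 3. The microRNA host gene Mir99ahg (10436596) had 0.27, 0.23 and 1.20 and the nuclear noncoding RNA Malat1 (10465244) 0.54, 0.55 and 0.29. The zinc finger gene Zfp942 (10448195) had 1.13, 0.12 and 0.020, carried by set 1, and Gm8624 (10393406) had 0.22, 0.65 and 0.37. Egr1 completed the 10.

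On the lower side Il1a (10487588), the gene of the cytokine interleukin 1 alpha, had the largest mean difference. It was measured at 8.23, 7.63 and 8.20 at 1g and 7.46, 7.21 and 7.69 at ug: each ug array lay below the 1g array of its set, while the 1g array of set 2 lay within the range of the ug arrays. The difference was -0.57 ± 0.27 (unadjusted p = 0.0470, 0.00219 with the replicate block). Snora41 (10346876), a small nucleolar RNA, was at 6.53, 6.68 and 6.31 at 1g and 6.27, 6.19 and 5.99 at ug with no overlap, and differed by -0.35 ± 0.11 (unadjusted p = 0.00560, 0.00369 with the replicate block). The deubiquitinase gene Usp35 (10565600) was at 6.52, 6.51 and 6.70 at 1g and 6.41, 6.30 and 5.89 at ug, again with no overlap but with most of the difference in set 3. Otulinl (10427918) had close values, -0.32, -0.31 and -0.44, and Kdm5b (10350046), a histone demethylase gene, -0.27, -0.096 and -0.69. Cyp2j6 (10514510), a cytochrome P450 gene, had -0.32, -0.54 and -0.14, and Fn3krp (10383556), a protein-deglycating kinase gene, -0.18, -0.19 and -0.62. Acot4 (10397153), a peroxisomal thioesterase gene, had -0.52, -0.22 and -0.23. The 2 others, Lce1i (10499935, a late cornified envelope gene) and Gzme (10420268, granzyme E), belong to skin and to cytotoxic lymphocytes, and had means at 1g of 6.50 and 6.75. Of the 20 genes, 1 of the higher (A3galt2, 2.68% of all genes) and 6 of the lower (Usp35, Snora41, Otulinl, Kdm5b, Cyp2j6 and Fn3krp, 2.95%) had no overlap between the groups. The 20 were picked by size and sign on these same arrays, which favours a lack of overlap. These counts are therefore no separate support for a difference.

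**Figure D4:**
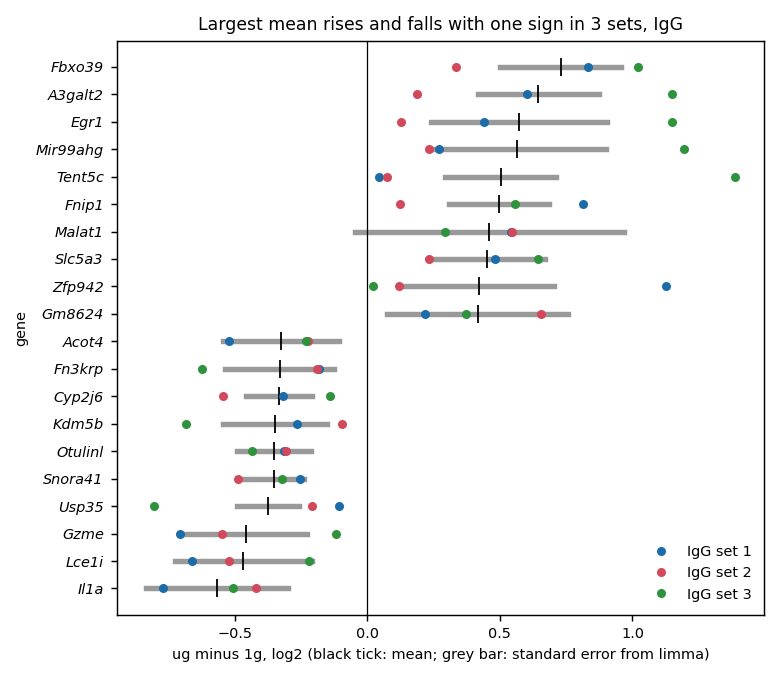
Ug minus 1g (x, log2) in IgG sets 1, 2 and 3 (coloured points) for the 10 largest mean differences in each direction with the same sign in 3 sets (y), with the mean (black tick) and its standard error from limma (grey bar). The points of Otulinl and Snora41 lie close together, and those of Tent5c and Zfp942 spread by more than 1.

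Ranked by unadjusted p rather than by size, other genes led, most of them with small differences. The 5 lowest on the higher side were Gabrr1 (10503866, 0.25 ± 0.078, unadjusted p = 0.00409), Cd209g (10569896, 0.23 ± 0.073), Fbxo39, Pou2f3 (10592705, 0.29 ± 0.095) and Kbtbd11 (10570513, 0.28 ± 0.092). Apart from Kbtbd11 and Fbxo39, whose function is little known, these encode a GABA receptor subunit, a lectin and a POU factor, and the means of all 5 at 1g lay between 5.79 and 6.45. On the lower side they were the pseudogene Mkrn1-ps1 (10531146, -0.26 ± 0.080, unadjusted p = 0.00437), Usp35, Snora41, the forkhead factor gene Foxo4 (10601091, -0.22 ± 0.073) and Zscan20 (10516507, -0.21 ± 0.071). Signal of Mkrn1-ps1 cannot be told apart from its parent gene where a probe matches both.

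The other signalling lists held few genes with low p-values. Cytokines and chemokines had 14 of 19 members above 0 (47.0% of all genes) and a median of 0.061. Of the 19, 1 member, Il1a, was below the unadjusted 0.05 (1.12% of all genes). The chemokine genes Ccl7 (10379518) and Ccl20 (10347888) differed by 0.14 ± 0.11 and 0.12 ± 0.11. NF-kappaB feedback genes had 7 of 13 above 0, led by Rel (10384725), an NF-kappaB subunit, at 0.13 ± 0.096. Of 4 tested ligands of the EGF receptor, Ereg (10523175, epiregulin) had set differences of 0.12, 0.027 and 0.62 and Hbegf (10458340, heparin-binding EGF) of -0.038, 0.019 and 0.73, which places them with the set 3 pattern of the early genes. No other gene on these 3 lists was below the unadjusted 0.05 without the block.

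Genes of mechanosensing showed no common difference. Mechanosensitive and calcium channels had 8 of 15 members above 0 and a median of 0.0043; the cation channel genes Trpv2 (10376868) and Trpm7 (10487277) differed by -0.12 ± 0.095 and 0.23 ± 0.26. Connexins, pannexins and ATP receptors had 6 of 13 above 0, with Entpd1 (10463070), an enzyme that breaks down extracellular ATP, at 0.063 ± 0.077. The prostaglandin E2 pathway had 5 of 10 above 0. Its inducible synthase Ptgs2 (10350516), a usual answer of osteocytes to load, was at 13.06, 12.90 and 12.88 at 1g and 13.12, 12.89 and 13.03 at ug, and differed by 0.065 ± 0.065. Actin, SRF and YAP targets had 6 of 19 above 0 and a median of -0.014, with set medians of 0.055, 0.015 and -0.11. In that list Myl9 (10477920), a myosin light chain gene, was lower in each set (-0.042, -0.15 and -0.45), with -0.21 ± 0.12 (unadjusted p = 0.0819, 0.0129 with the replicate block), and the YAP target Ccn2 (10362201) differed by -0.11 ± 0.13. Integrins and focal adhesions had 6 of 16 above 0 (47.0% of all genes) and 1 member below the unadjusted 0.05 (1.12% of all genes). That member was the collagen receptor gene Itga1 (10412298), at 7.35, 7.53 and 7.74 at 1g and 7.42, 7.29 and 7.28 at ug. It differed by -0.21 ± 0.096 (unadjusted p = 0.0457, 0.0468 with the replicate block). Collagens and matrix genes had 14 of 29 above 0, with the collagen-modifying enzymes Plod2 (10587829) and P4ha2 (10376074) at 0.11 ± 0.080 and -0.082 ± 0.082.

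Bone-directed signals differed little. Among the genes that control osteoclasts, Tnfsf11 (10421737), which encodes RANKL, was at 9.70, 9.14 and 9.34 at 1g and 9.41, 9.13 and 10.15 at ug, with the ug array of set 3 the highest and that of set 2 the lowest, and differed by 0.17 ± 0.24. Il34 (10581664), a ligand of the receptor of macrophage colony-stimulating factor, differed by 0.12 ± 0.11. Of the Wnt pathway, 8 of 14 genes were above 0, Sost differing by 0.096 ± 0.090 and Nkd1 (10573779), a Wnt feedback gene, by 0.11 ± 0.073. Of TGF-beta and BMP response genes, 11 of 19 were above 0, led by Tgif1 (10452633), a repressor of the pathway, at 0.17 ± 0.18 with set differences of 0.081, -0.15 and 0.58. No member of these 3 lists was below the unadjusted 0.05, with or without the block.

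The stress lists had medians near 0, while single genes on them differed more. Heat shock proteins had 12 of 17 above 0 and a median of 0.032, with Hspa1a (10450369, an inducible chaperone) at 0.078, 0.17 and 0.29 in the 3 sets; Hspa1a and Hspa1b are near-identical copies and their signals cannot be told apart. Dnajb4 (10502823), a cochaperone, was at 11.07, 11.04 and 10.99 at 1g and 11.19, 11.15 and 11.14 at ug with no overlap and differed by 0.13 ± 0.12 (unadjusted p = 0.313, 0.107 with the replicate block). Of the cold-inducible RNA-binding genes, Rbm3 (10556113) differed by 0.055 ± 0.035 and Cirbp (10364712) by -0.072 ± 0.15. Unfolded protein response genes had 11 of 23 above 0. Ppp1r15a (10563338), which restarts translation after stress, had set differences of 0.58, -0.23 and 1.17 and Dnajb9 (10400137), an endoplasmic reticulum cochaperone, of 0.00049, 0.033 and 0.83, both highest in set 3. Pdia6 (10394735) was lower in each set (-0.12, -0.051 and -0.060). In this list 2 genes were below the unadjusted 0.05 with the block (3.41% of all genes), Dnajb9 higher and Pdia6 lower. NRF2 targets had 15 of 19 above 0 (47.0% of all genes) and 0 lower in all 3 sets (15.2%); 3 were below the unadjusted 0.05 with the block (3.41%) and 0 without it (1.12%). The glutathione-synthesis gene Gclc (10587266) was one of them, at 0.058, 0.054 and 0.46, and the metallothioneins Mt1 (10574027) and Mt2 (10574023) differed by 0.11 ± 0.10 and 0.073 ± 0.051. Iron-handling genes had 8 of 11 above 0, with ferritin heavy chain (Fth1, 10461402) at 0.049 ± 0.029.

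In metabolism, oxidative phosphorylation had 9 of 24 genes above 0. Ppargc1a (10529979), the coactivator that drives mitochondrial genes, had set differences of 0.13, 0.055 and 0.99, whereas the complex I gene Ndufa9 (10548057) had -0.11, -0.11 and -0.067. Cytosolic ribosomal proteins had 10 of 13 above 0 at a median of 0.017. Hypoxia and glycolysis genes had 10 of 22 above 0, with the oxygen sensor gene Egln3 (10400304) at -0.14 ± 0.071 and Adm (10556297, adrenomedullin) at -0.19 ± 0.14 (unadjusted p = 0.203, 0.0162 with the replicate block). Cholesterol synthesis had 12 of 17 above 0 and set medians of 0.054, -0.039 and 0.11: all 17 genes were above 0 in set 3, 14 in set 1 and 5 in set 2, against 39.1%, 50.8% and 54.2% of all genes. Its first dedicated enzyme Hmgcs1 (10412466) was at 9.40, 9.50 and 9.86 at 1g and 9.65, 9.53 and 10.32 at ug.

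Genes of growth and survival gave small differences. Cell cycle and DNA replication had 10 of 25 above 0 and a median of -0.010. p53 targets had 9 of 14 above 0, with the proapoptotic genes Bbc3 (10550290, PUMA) at 0.11 ± 0.089 and Pmaip1 (10456357, NOXA) at 0.16 ± 0.15. In the Bcl2 family, 1 of 14 was below the unadjusted 0.05 without the block (1.12% of all genes), and 3 were with it (3.41%), Bcl2l2 and Bad lower and Pmaip1 higher. Bcl2l2 (10415111), the survival gene of BCL-W, at 8.01, 7.89 and 7.91 at 1g and 7.73, 7.75 and 7.74 at ug with no overlap, differed by -0.20 ± 0.084 (unadjusted p = 0.0282, 0.00917 with the replicate block). Hrk (10524969), a BH3-only death gene, differed by 0.15 ± 0.082. Autophagy and lysosome genes had 13 of 19 above 0, the lipidated autophagosome protein gene Map1lc3a (10477637) differing by -0.14 ± 0.078 and the lysosomal regulator Tfeb (10445729) by -0.14 ± 0.077.

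The circadian clock held 2 genes below the unadjusted 0.05 among 17 (1.12% of all genes were), both higher. Rora (10586700), a nuclear receptor that activates clock genes, was at 7.43, 7.40 and 7.79 at 1g and 7.93, 7.57 and 8.32 at ug. Each ug array was above the 1g array of its set, with overlap between the groups, and the difference was 0.40 ± 0.16 (unadjusted p = 0.0210, 0.00586 with the replicate block). Nr1d2 (10417734), a repressor that acts at the same DNA elements, was at 8.53, 8.46 and 8.70 at 1g and 9.01, 8.64 and 8.78 at ug and differed by 0.25 ± 0.11 (unadjusted p = 0.0426, 0.0178 with the replicate block). The list had 12 of 17 genes above 0 at a median of 0.057. Type I interferon response genes had 12 of 17 above 0, 0 of them below the unadjusted 0.05, and the antiviral gene Rsad2 (10399710) differed by 0.19 ± 0.24.

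Marker levels of other cell types overlapped between the groups. The mean level over the 7 tested osteocyte markers ran from 9.31 to 9.40 at 1g and from 9.31 to 9.43 at ug, and over 4 osteoblast markers from 9.94 to 10.31 and from 10.02 to 10.23. For 7 chondrocyte markers the ranges were 7.64 to 7.90 and 7.72 to 8.11, for 7 macrophage and osteoclast markers 7.81 to 8.30 and 7.93 to 8.21, and for 7 endothelial markers 6.26 to 6.37 and 6.29 to 6.40. For 4 adipocyte markers they were 8.09 to 8.28 and 8.26 to 8.28, and for 5 muscle markers 6.86 to 7.11 and 6.91 to 7.04. No marker on these 7 lists was below the unadjusted 0.05 (1.12% of all genes). With the block 1 chondrocyte and 1 macrophage and osteoclast marker were (3.41% of all genes). The leukocyte and macrophage genes Ptprc, Adgre1 and Itgam did not pass the filter on dim probe sets. Fewer cells of a type and less RNA per cell cannot be told apart in such bulk samples. For 33 of all 36 lists, leaving out 1 set or 1 array gave a median of either sign at least once. The sign of those list medians thus depends on the arrays used, and many of them lie near 0, where a small move turns the sign.

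**Figure D5:**
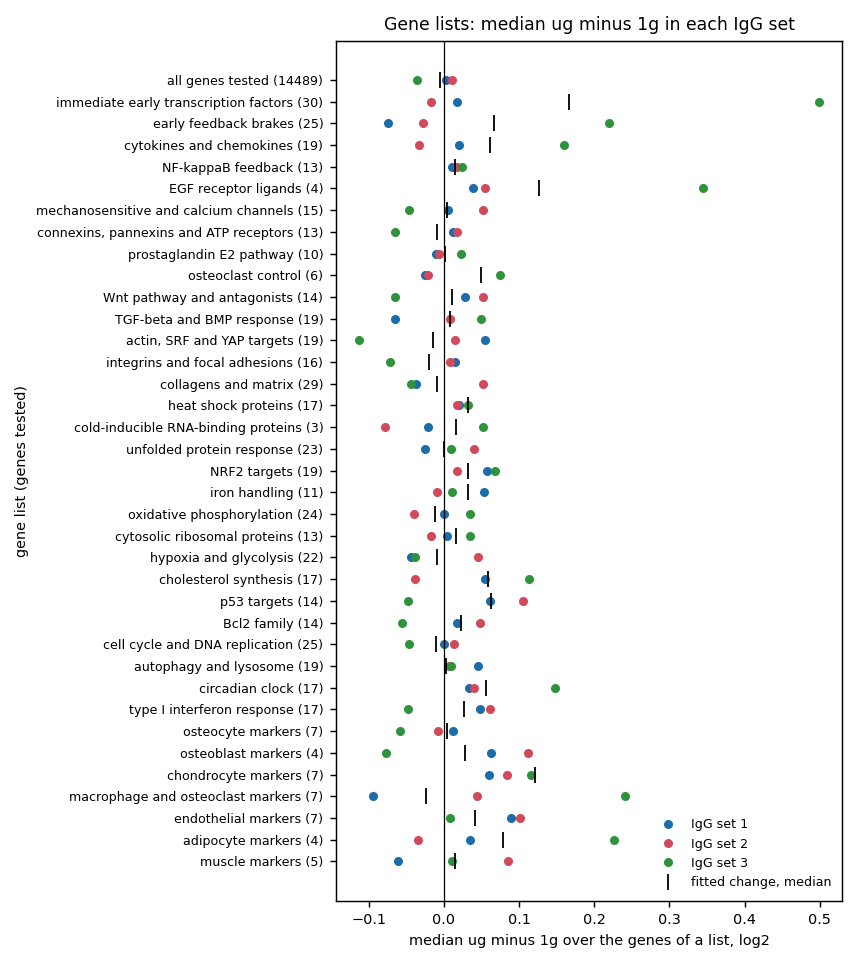
Median of ug minus 1g (x, log2) over the tested genes of each list (y, number tested in brackets) in IgG sets 1, 2 and 3 (coloured points) and for the fitted difference (black tick). The immediate early list in set IgG 3 lies at 0.50, apart from every other point.

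The same contrast in cells given Cx43(E2) comes from arrays that share no sample with the IgG arrays. There Gem was measured at 6.97, 7.02 and 5.94 at 1g and 9.01, 10.48 and 9.25 at ug in sets E2 1, 2 and 3, every ug array above every 1g array, with a difference of 2.94 ± 0.75. Fos was at 7.16, 7.22 and 6.88 at 1g and 7.997, 9.36 and 8.01 at ug, Fosb at 8.47, 7.68 and 7.27 at 1g and 9.04, 9.69 and 8.96 at ug and Atf3 at 8.35, 7.64 and 7.85 at 1g and 8.93, 10.07 and 9.12 at ug. The ug array was the highest in each set for all 4 genes. Differences between ug and 1g in the E2 arm were 1.37 ± 0.34 for Fos, 1.42 ± 0.36 for Fosb, 1.43 ± 0.31 for Atf3, 1.10 ± 0.33 for Egr1 and 1.21 ± 0.40 for Nr4a1. As in IgG, 0 genes passed the adjusted test in limma (lowest 0.406), with 513 below the unadjusted 0.05 (3.54%; 1249 or 8.62% with the block). Of the immediate early list, 28 of 30 were above 0 in E2 (48.2% of all genes) with a median of 0.33, against 26 and 0.17 in IgG, and 13 were below the unadjusted 0.05.

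The difference between the arms was tested as an interaction. Here 0 genes passed in limma, with 94 below the unadjusted 0.05 (0.649%; 205 or 1.41% with the block), and 0 of the 30 immediate early genes were among the 94. For Gem the E2 difference exceeded the IgG difference by 1.08 ± 1.06 (unadjusted p = 0.321), and for Atf3 by 0.86 ± 0.44 (unadjusted p = 0.0664). With the block, Atf3 had an unadjusted p of 0.0449. Without the opposed arrays the value for Gem was -0.065 ± 0.68 (0.12 ± 0.45 with the block), small against its SE in both fits. That for Atf3 was then 0.50 ± 0.40 (unadjusted p = 0.227). Usp35, at -0.37 ± 0.12 in IgG, was at 0.051 ± 0.12 in E2, and Gzme was at 0.27 ± 0.23 in E2. Their interaction p values in limma were 0.0183 and 0.0367 before adjustment. Both genes were picked for their large falls in IgG, a choice that by itself favours a difference between the arms. Over all genes the 2 arms' differences correlated at r = 0.488, and 65.0% of genes had the same sign. Of the 162 genes below the unadjusted 0.05 in IgG, 129 (79.6%) had the same sign in E2. Of these 129, 38 were also below the unadjusted 0.05 in E2, where 3.54% of all genes were. In limma each gene had the same SE in both arms, because its spread was estimated over all arrays together. Choosing genes by a low p in IgG therefore favours a small SE, and with it a low p in E2. The count of 38 is thus no separate support for a shared difference.

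The 23 genes that differed by more than 1 in set IgG 3 were followed in the other sets. All 23 were above 0 in sets E2 2 and E2 3 (51.6% and 57.3% of all genes were) and 20 in set E2 1 (39.0%), and 18 of them also passed 1 in set E2 2, where 25 genes in all did (0.173% of genes). In the other IgG sets 16 were above 0 in set 1 (50.8% of all genes) and 8 in set 2 (54.2%). The immediate early and feedback lists hold 30 and 25 of the 14489 genes tested, and were chosen with earlier results of these data known. Of the 23, 11 belong to these lists, among them Gem (3.70), Nr4a1 (2.08), Fosb (1.63), Fos (1.52), Atf3 (1.49), Nr4a3 (1.19), Egr1 (1.15), Csrnp1 (1.03) and Dusp1 (1.01). Tent5c, Mir99ahg, Ppp1r15a, A3galt2, Nup210l and Fbxo39 were among the rest. Across all genes ug minus 1g of set IgG 3 correlated with set E2 2 at r = 0.548 and with set E2 3 at 0.313, and set IgG 1 correlated with set E2 1 at 0.384. In set E2 1, 66 genes (0.456%) passed 1 on the higher side, led by Malat1 (2.12), Gem (2.03) and Snora75 (1.80).

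The other positions of the IgG arm share the 1g arrays with this comparison, so the numbers are given side by side only. For 2g against 1g in IgG, 0 genes passed in limma, with 259 below the unadjusted 0.05 (1.79%), and for 1g against C 0 passed, with 886 (6.11%); with the block 0 and 7 genes (0.0483%) passed. Gem differed by 0.76 ± 0.75 for 2g minus 1g and by -0.013 ± 0.75 for 1g minus C. For 2g minus 1g its set differences were -0.34, 2.70 and -0.084, so that the mean rested on the opposed 2g array; without the opposed arrays it was -0.013 ± 0.50. The median of the immediate early list was 0.069 for 2g minus 1g, with set medians of -0.12, 0.19 and 0.11, and -0.030 for 1g minus C. Of the 30 genes, 4 were higher at 2g than at 1g in set IgG 1, 25 in set IgG 2 and 25 in set IgG 3.

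Leaving out the opposed arrays gave a second reading of the comparison. Leaving out arrays because they lack a pattern favours that pattern, so these values show only how far the result rests on them. In limma without a block 0 genes passed, with the lowest adjusted p at 0.180 for Gem, which then differed by 3.004 ± 0.50. With the block 4 genes passed. Gem differed by 2.82 ± 0.35 (adjusted p = 0.00213), Fbxo39 by 0.92 ± 0.15 (adjusted p = 0.0228), Nup210l (10493662), a nuclear pore gene, by 0.79 ± 0.12 (adjusted p = 0.0171) and Txnip (10494428) by -0.56 ± 0.074 (adjusted p = 0.00333). Txnip encodes the thioredoxin-interacting protein, which restrains glucose uptake. On all arrays Nup210l was at 7.55, 7.34 and 7.40 at 1g and 8.06, 7.30 and 8.48 at ug and Txnip at 11.57, 11.31 and 10.91 at 1g and 10.97, 11.39 and 10.31 at ug. Both had the array labelled ug of set 2 nearer to its 1g array than in the other sets, and their differences were 0.52 ± 0.26 (unadjusted p = 0.0591, 0.0241 with the replicate block) and -0.37 ± 0.24 (unadjusted p = 0.141, 0.00453 with the replicate block). The immediate early median was 0.26 in the fit without these arrays, with 27 of 30 above 0.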

How the data were processed

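RNA of 24 MLO-Y4 samples had been hybridised to Affymetrix mouse gene arrays, 1 array per sample, in 8 groups of 3 given by the titles. Values are the deposited log2 intensities (2.36 to 14.06; the log2 scale was judged from the values). MAS5 is named, per the submitters' processing notes, with no role or version, and how the authors scaled arrays is not given in the sources used here. No 2 arrays shared more than 10 identical values.

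Of 35556 probe sets, 21789 carried 1 gene symbol in the platform annotation, 1621 several and 12146 were not listed; 21698 of those with 1 symbol matched RefSeq. Kept were 22641 probe sets at or above the 40th percentile of the array on at least 3 arrays, of which 15786 had 1 symbol. The brightest probe set stood for a gene, which left 14489 genes. Limma 3.58.1 (R 4.3.3) fitted 8 group means over 24 arrays, with eBayes trend, Benjamini-Hochberg adjustment over all genes, 16 residual and 4.08 prior degrees of freedom, and two-sided tests at 0.05. The replicate block (12 and 8.29) gave each of 6 sets its own level. Numbers were taken to pair arrays within an antibody arm because ug and 1g arrays of the same IgG number deviated together from their group means (r = 0.345 to 0.591 across genes; -0.548 to 0.317 for other numbers). In E2 the same numbers gave 0.287 to 0.725 and other numbers -0.642 to 0.393, so that 1 pair of different numbers exceeded a same-numbered pair. It is a pairing that no label states. The fit was tested on simulated data.

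The members, gene lists and promoters were chosen with earlier results of these data known. Genes were named by rule: the 10 largest mean differences in each direction with 1 sign in 3 sets, the 5 lowest p-values in each direction, the 5 widest ranges over sets, every immediate early gene, up to 4 genes per list by p-value, Gja1, and genes past the adjusted threshold. Genes outside it (single-set leaders, Pdpn, Sost and Fos-like early genes) were picked with their values in view. The number of arrays limits the precision. Alternatives were the replicate block, the arrays compared alone, quantile normalization, no filter, mean of probe sets, no variance trend and arrays left out.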

Additional observations from a re-analysis of the deposited data

How the results depend on the processing

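In ug against 1g, 0 genes passed the adjusted threshold under every setting run except 1. The lowest adjusted p was 0.930 or higher, apart from the fits without set 2 or its arrays, and the block without set 3 (0.599). The exception was chosen after seeing the data: the replicate block without the opposed arrays (labelled 2g and ug, set IgG 2) called 4 genes. Genes below the unadjusted 0.05 numbered 162 as reported, 494 with the replicate block, 576 with the block over only the 6 arrays compared, 374 with no filter on dim probe sets, 292 without the opposed arrays and 537 with both that and the block. Leaving out arrays gave 106 to 429 without the block; with the block and 1 set left out it gave 319, 471 and 515. The cause of these moves was not tested. The replicate block gave 7 genes past the adjusted threshold in 1g against C, where 0 passed without it, and changed no other call: E2, 2g against 1g and the interaction stayed at 0 in each setting run. The immediate early median stayed above 0, between 0.0015 and 0.27 with arrays left out.

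Several single genes changed sign. Quantile normalization turned Fosl1 to -0.0040 and Gja1 to -0.0038. Without the opposed arrays, Btg2 was at 0.023 (0.034 with the block) and, with the block, Egr3 was at -0.0020, Fosl1 at -0.020 and Gja1 at -0.015. With arrays left out, differences ran from -0.013 to 0.56 for Arc, from -0.18 to 0.13 for Btg2, from -0.23 to 0.0022 for Ccn2, from -0.0091 to 0.61 for Csrnp1, from -0.072 to 0.59 for Egr2, from -0.10 to 0.18 for Egr3, from -0.044 to 0.13 for Egr4, from -0.028 to 0.039 for Fosl1, from -0.10 to 0.13 for Gja1, from -0.0099 to 0.38 for Hbegf, from -0.19 to 0.25 for Ier2, from -0.065 to 0.54 for Ier3, from -0.062 to 0.28 for Ier5, from -0.082 to 0.0067 for Jun, from -0.035 to 0.35 for Junb, from -0.012 to 0.022 for Jund, from -0.0072 to 0.16 for Klf2, from -0.15 to 0.21 for Maff, from -0.015 to 0.15 for Myc, from -0.15 to 1.03 for Nr4a1, from -0.022 to 0.39 for Nr4a2, from -0.073 to 0.67 for Nr4a3, from -0.0062 to 0.10 for Pdpn, from -0.20 to 0.024 for Srf, from -0.063 to 0.36 for Tgif1, from -0.15 to 0.40 for Tnfsf11 and from -0.031 to 0.39 for Zfp36. The other 82 of 109 named genes kept their sign in those fits. Of the list medians, 48 of 315 values with arrays left out and 9 of 140 under other settings moved by more than the spread over sets. With 3 arrays a group, the median standard error of 0.103 limits what could be seen.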
